A study of Mus musculus with 15 samples.

Results

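Pancreatic islet cells carrying a red fluorescent lineage label (RFP), taken in the study as β cells, were sorted by aldehyde dehydrogenase (ALDH) activity from mice labelled as controls, and the ALDH+ cells were compared with the ALDH- cells of the same genotype. The comparison held 5 of the 15 libraries of the study, 2 of ALDH+ and 3 of ALDH- cells, chosen by their labels. All 5 came from islets of mice that the labels give as triple heterozygous for FoxO 1, 3 and 4, on a mixed 129JC57BL/6 background. The study's methods instead describe control mice with intact Foxo alleles, so the genotype of these cells is given here as labelled. ALDH- replicates 1 and 2 and ALDH+ replicate 1 came from RIP-Cre mice, in which the insulin promoter drives the recombinase that switches on the RFP label. ALDH- replicate 3 and ALDH+ replicate 2 came from Pdx-Cre mice, in which the recombinase is active in pancreatic precursors, so that their label is not restricted to β cells by its promoter. The methods give an age of 6 months and 10 to 20 animals per genotype for islets of Rip-cre mice, and neither is stated for the Pdx-Cre libraries. No source ties a library to separate animals, so that p-values measure the spread between these libraries only. The other 10 libraries, 5 ALDH+ and 5 ALDH- from triple FoxO knockout mice on both drivers, shared the fit and served as a second set of samples. The question behind the sort was how RFP+ cells with ALDH activity differ from healthy RFP+ cells of the same islets.

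β cells make, store and release insulin, and their secretory load is carried by the translocation machinery of the endoplasmic reticulum, the granule acidification pumps and a large mitochondrial supply of ATP. ALDH enzymes oxidise aldehydes, and ALDH1A3 makes retinoic acid from retinal. The sorting reagent is a fluorescent aldehyde that stays inside cells once such an enzyme has converted it. The genes of cytosolic and mitochondrial ribosomes, of oxidative phosphorylation (OXPHOS) and of non-coding RNAs were tested with all others and are not described.

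Expression was measured as FPKM, the fragments of a gene scaled by the length of its transcript and by the number of fragments mapped in the library. The intervals deposited with the FPKM correspond to 7488581 to 10054839 fragments per control library. FPKM were rescaled between libraries, log2(FPKM + 1) values were fitted with limma over all 15 libraries with the cre driver as a covariate, and a difference is ALDH+ minus ALDH- on that log2 scale, which understates the change of low genes. A gene was called at a Benjamini-Hochberg adjusted p under 0.05 over the 11253 genes tested. An exact permutation of 2 against 3 libraries cannot give a two-sided p below 0.1, so that the calls rest on the spread that limma shares among libraries and genes.

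The sort was checked first on its own enzyme. Aldh1a3, at chr7:73535779-73572363 in mm9, was at 0.791, 1.54 and 1.66 FPKM in ALDH- replicates 1, 2 and 3, and at 28.2 and 24.9 FPKM in ALDH+ replicates 1 and 2. These values rested on 30 to 61 fragments in ALDH- and on 854 and 766 fragments in ALDH+ libraries. Both ALDH+ libraries stood far above the 3 ALDH- libraries, an 11.5-fold difference (log2 3.53, standard error 0.59, limma adjusted p = 0.0298). Of the 11 members of the ALDH family that were tested, Aldh1a3 was the 1 that was called, and the median over the family was 0.04. Aldh2, the mitochondrial acetaldehyde dehydrogenase, was at 2.02, 3.26 and 1.78 FPKM in ALDH- and at 1.48 and 1.35 FPKM in ALDH+ libraries (log2 -0.39, adjusted p = 0.792). Aldh1a1 did not exceed 0.353 FPKM in any control library, and Aldh1a2 was listed at 0 in all 5. Foxo1 set the control libraries apart from the knockouts, which cannot tell heterozygous from intact control mice. Foxo1 was at 20.1, 16.7 and 16.2 FPKM in ALDH- and at 19.6 and 12.0 FPKM in ALDH+ controls, where the knockout libraries lay between 0.0925 and 4.24 FPKM. Neither Foxo1 (log2 -0.12, adjusted p = 0.953) nor Foxo3 (log2 -0.06, adjusted p = 0.967) passed the test between ALDH+ and ALDH- control cells.

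Of the genes tested, 137 (1.22%) were called between control ALDH+ and ALDH- cells, 52 higher (0.462%) and 85 lower (0.755%) in ALDH+ cells. Of all genes tested 5366 lay above 0 and 5887 below, with a median of -0.03. These figures are the background for the counts of each list given below. Outside the ribosomal, OXPHOS and non-coding genes, 72 of 10477 were called, 34 higher and 38 lower. Among these 72, the largest rises after Aldh1a3 were those of Rtl1 and Eml5, and the largest falls those of Shfm1, Exosc5 and Fis1. In rescaled FPKM, for each of the 72 genes both ALDH+ libraries lay beyond all 3 ALDH- libraries on the side of the call, as the choice of these genes by the same libraries makes likely; over all genes tested, 14.1% lay above and 17.1% below without overlap. Adjusted p of the 72 lay between 0.0262 and 0.0498, close to the threshold. Leaving out ALDH- replicate 1, 2 or 3 took the count from 137 to 0 each time (limma, 1308, 1214 and 1355 genes at an unadjusted p under 0.05). Without ALDH+ replicate 1 or 2 a single ALDH+ control library was left, so that no count is given. Every 1 of the 72 kept its direction in all of these fits, which their choice by the same libraries without overlap makes likely. The kept direction is therefore no separate check of the calls.

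**Figure D1:**
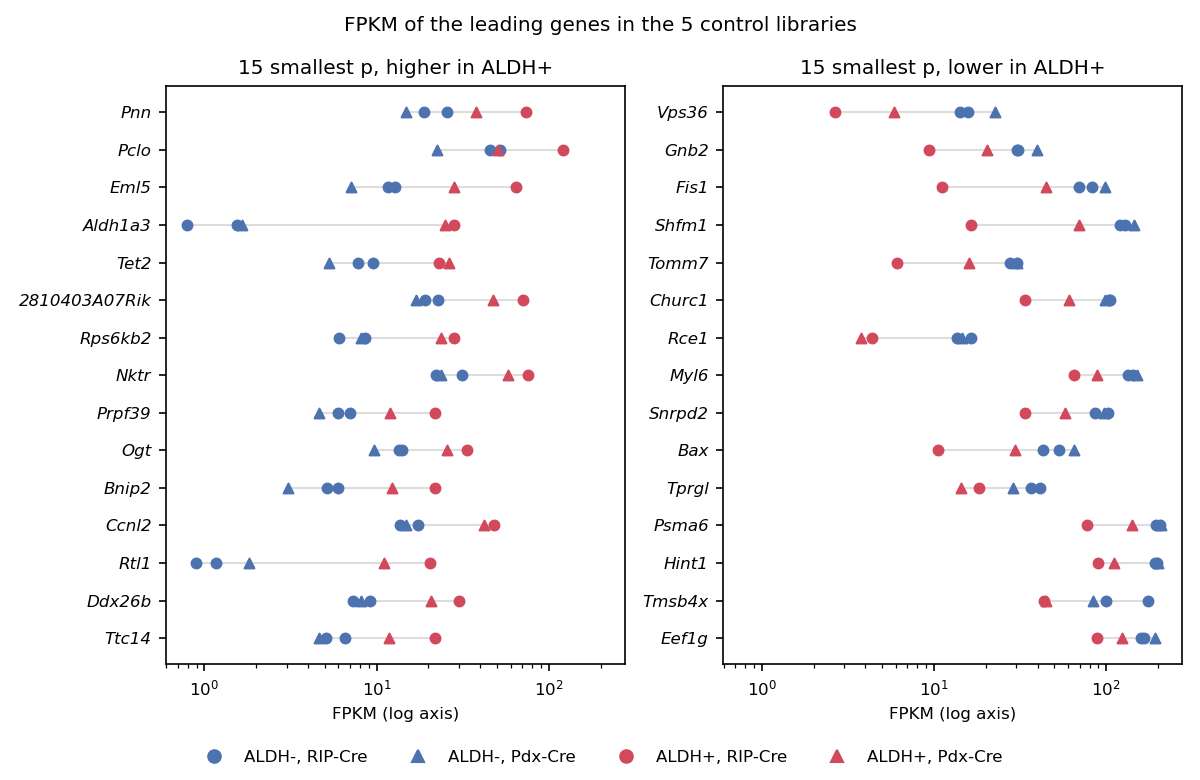
FPKM on a log axis of the 15 genes with the smallest p in each direction, outside ribosomal, OXPHOS and non-coding genes, with 1 point per control library (blue ALDH-, red ALDH+, circles RIP-Cre, triangles Pdx-Cre). The red points lie on 1 side of the blue points for each gene except Pclo, whose Pdx-Cre ALDH+ value lies at 50.4 FPKM beside ALDH- replicate 1 at 52.2 FPKM before rescaling, and for Shfm1 and Fis1 the RIP-Cre ALDH+ library lies further away than the Pdx-Cre ALDH+ library.

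Among the lists, whose members were chosen with earlier results of these data known, regulators of RNA splicing held the most called rises. Nuclear speckles are the bodies in which splicing factors are stored and modified. Of 54 tested genes listed as SR-type or speckle proteins, 12 rose in ALDH+ cells and 0 fell (limma, adjusted p under 0.05). Over all genes tested 0.462% were called higher. The median log2 difference of the 54 was 0.62, against -0.03 over all genes tested, and 51 of the 54 lay above 0. In 36 of the 54 both ALDH+ libraries were above all 3 ALDH- libraries, where 14.1% of all genes were. The 12 were Pnn, Nktr, Prpf39, Ccnl2, Sfrs18, Luc7l, Leng8, Clk4, Fnbp4, Srrm2, Srek1 and Zfc3h1. Exons of Nktr share 2182 bases with E530011L22Rik on the opposite strand, whose reads were not separated from those of Nktr.

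Pnn encodes pinin, a protein of nuclear speckles and desmosomes, and had the smallest p of the rising genes. It was at 25.5, 18.9 and 14.8 FPKM in ALDH- replicates 1, 2 and 3 and at 73.7 and 37.9 FPKM in the ALDH+ libraries, a 2.74-fold rise (log2 1.45, standard error 0.23, adjusted p = 0.0262). The lower of the ALDH+ libraries was that from the Pdx-Cre mouse, and it was still above every ALDH- library. Srek1, an SR protein that acts on splice site choice, was at 13.8, 12.2 and 10.1 FPKM in ALDH- and at 58.3 and 35.2 FPKM in ALDH+ libraries, the largest rise of the group (3.70-fold, adjusted p = 0.0491). Ccnl2, a cyclin of nuclear speckles, was at 17.4, 13.7 and 14.9 FPKM in ALDH- and at 48.0 and 41.8 FPKM in ALDH+ libraries (2.79-fold, adjusted p = 0.0350). Clk4, a kinase that phosphorylates SR proteins, rose 2.17-fold (adjusted p = 0.0394). Srrm2, a scaffold of the speckles and the most abundant of the 12, was at 134, 105 and 112 FPKM in ALDH- and at 254 and 180 FPKM in ALDH+ libraries (1.83-fold, adjusted p = 0.0487). The rises therefore ranged from less than a doubling to nearly 4 times, in genes of very different level. Prpf39 and Luc7l, both proteins associated with the U1 particle that recognises the start of an intron, rose 2.62-fold and 2.85-fold (adjusted p = 0.0350 and 0.0367).

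Promoters are shown because these 12 genes moved together. RefSeq promoter sequences (build GRCm38.p6, a later build than the mm9 of the expression files) were found for 10 of the 12, not for Luc7l and Sfrs18, and the first listed start of each gene was used. In the 250 bases before the start, 8 short motifs were searched on both strands. CCGGAAG, the core bound by many ETS factors, was in 6 of the 10 (60.0%), against 14.9% of the 8821 genes tested that had a promoter and 7.05% of the 27025 promoters in the table. It was in 25% of 28 promoters of the described genes called higher and in 18.75% of 32 of those called lower. Splicing regulators that were not called were not counted, so that a link of the motif to the rise was not tested. The Sp-type box GGGCGG was in 60.0% against 60.4% of tested genes, and CCAAT in 50.0% against 36.5%. TATAAA and the FoxO-type motif GTAAACA were in 0 of the 10, against 5.99% and 2.13%. The palindrome of the factor NRF-1, TGACGTCA and GATTGGCTG, the last of which holds a reverse CCAAT, were in 0, 1 and 1 of the 10. The motifs were counted after the calls were known, and a match is not a bound site. The promoters of the 3 genes with the smallest p among those with CCGGAAG, written 5′ to 3′ on the gene's strand with the motif or its reverse complement in capitals, were:
Pnn (chr12:59066669-59066918, plus strand): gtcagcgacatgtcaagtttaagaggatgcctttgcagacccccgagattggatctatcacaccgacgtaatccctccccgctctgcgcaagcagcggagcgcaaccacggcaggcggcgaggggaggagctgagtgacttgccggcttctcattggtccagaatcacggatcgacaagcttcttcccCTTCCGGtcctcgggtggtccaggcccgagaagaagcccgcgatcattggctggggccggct
Nktr (chr9:121718931-121719180, plus strand): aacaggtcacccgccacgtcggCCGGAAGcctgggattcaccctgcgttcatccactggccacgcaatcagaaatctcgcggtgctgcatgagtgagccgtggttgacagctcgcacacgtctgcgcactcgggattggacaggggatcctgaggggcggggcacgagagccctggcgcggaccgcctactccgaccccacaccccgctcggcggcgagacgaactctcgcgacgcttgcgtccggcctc
Ccnl2 (chr4:155812239-155812488, plus strand): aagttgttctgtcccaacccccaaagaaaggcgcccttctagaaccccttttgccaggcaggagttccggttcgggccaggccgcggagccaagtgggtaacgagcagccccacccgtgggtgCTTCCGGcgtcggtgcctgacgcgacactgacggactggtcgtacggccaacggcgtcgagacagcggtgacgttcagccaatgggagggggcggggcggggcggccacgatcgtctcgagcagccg

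In the list of the spliceosome core, the small ribonucleoproteins that carry out splicing, most genes lay below 0. The median transcript length of that list was 1541.5 nt, and the shortest of 5 length bins of all genes also had a median log2 difference of -0.41. Of 38 tested core genes 1 was called lower, where 0.755% of all genes were, and 0 were called higher. Of the 38, 30 lay below 0, with a median of -0.41, against 5887 of 11253 and -0.03 over all genes tested. Snrpd2, a subunit of the Sm ring, was at 86.7, 103 and 97.2 FPKM in ALDH- and at 33.7 and 57.6 FPKM in ALDH+ libraries (2.27-fold lower, adjusted p = 0.0350). Snrnp70, which belongs to the U1 particle, had the largest positive difference among the core genes with 36.2, 37.9 and 29.6 FPKM in ALDH- and 86.8 and 57.2 FPKM in ALDH+ libraries, and missed the threshold (log2 1.01, adjusted p = 0.0962).

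Chromatin modifiers and remodelers were the second group with called rises. Of 86 tested, 5 rose and 0 fell, 76 lay above 0, and the median was 0.46. Tet2, an enzyme that oxidises methylated cytosine, was at 7.76, 9.50 and 5.26 FPKM in ALDH- and at 23.1 and 26.3 FPKM in ALDH+ libraries, a 3.08-fold rise (adjusted p = 0.0350). Unlike most rising genes it was higher in the Pdx-Cre than in the RIP-Cre ALDH+ library. Mll1 and Mll3, methyltransferases for histone H3, rose 2.33-fold and 2.23-fold (adjusted p = 0.0408 and 0.0359). Bod1l and Ankrd11, the latter a chromatin regulator that binds deacetylases, rose 2.01-fold and 1.97-fold (adjusted p = 0.0425 and 0.0472). Other nuclear and RNA-binding genes outside the lists were also called. Ogt, which attaches the sugar O-GlcNAc to nuclear and cytoplasmic proteins, was at 14.0, 13.5 and 9.62 FPKM in ALDH- and at 33.5 and 25.6 FPKM in ALDH+ libraries (2.29-fold higher, adjusted p = 0.0350). Nfat5, the transcription factor of the osmotic stress response, and Tnrc6a, a scaffold of microRNA silencing, rose 2.28-fold and 2.03-fold (adjusted p = 0.0453 and 0.0408).

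Large cytoskeletal and Golgi scaffolds were higher as a list, with 2 of 49 tested members called, 43 above 0 and a median of 0.46. Their transcripts are long, with a median of 9963 nt, and the median difference was 0.05 with the trend over transcript length removed. Eml5, a microtubule-associated protein, was at 12.8, 11.6 and 7.13 FPKM in ALDH- and at 64.2 and 28.2 FPKM in ALDH+ libraries (4.20-fold, adjusted p = 0.0262). Exons of Eml5 share 949 bases with Zc3h14 on the opposite strand. The preparation is not stated to keep the strand, so that reads of the pair cannot be told apart. The kinesin Kif12 rose 2.08-fold (adjusted p = 0.0416). The excess of both was larger in the RIP-Cre than in the Pdx-Cre pair, with log2 differences of 2.30 and 1.74 for Eml5 and of 1.37 and 0.62 for Kif12.

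Few genes of the secretory function of the β cell were called. Of 45 exocytosis genes 1 rose and the median was 0.07. That gene, Pclo, encodes the active zone scaffold piccolo and was at 52.2, 45.5 and 22.3 FPKM in ALDH- and at 121 and 50.4 FPKM in ALDH+ libraries (2.25-fold, adjusted p = 0.0262). Its Pdx-Cre ALDH+ value lay between the RIP-Cre ALDH- values before rescaling, and the excess within that driver was 1.02 on the log2 scale. Of 29 ion channel genes 1 was called higher, while 24 lay above 0 and the median was 0.35. The called gene, Kcnh6, a potassium channel subunit of the ether-a-go-go type, rose from 8.25, 8.00 and 8.25 FPKM in ALDH- to 41.2 and 17.7 FPKM in ALDH+ libraries (3.11-fold, adjusted p = 0.0450). The P/Q-type calcium channel gene Cacna1a (log2 1.23, adjusted p = 0.0662) and the L-type gene Cacna1c (log2 0.91, adjusted p = 0.0901) came nearest among the others. Among 31 G protein genes 2 fell. Gnb2, a beta subunit, was at 30.4, 30.6 and 39.9 FPKM in ALDH- and at 9.31 and 20.3 FPKM in ALDH+ libraries (2.57-fold lower, adjusted p = 0.0262), and the gamma subunit Gng10 was 2.27-fold lower (adjusted p = 0.0450). Exons of Gng10 share 814 bases with the annotated gene Gm20503 on the same strand.

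In the insulin signalling list 1 of 29 genes rose. Rps6kb2, a kinase of ribosomal protein S6 downstream of mTOR, was at 8.54, 6.08 and 8.09 FPKM in ALDH- and at 28.2 and 23.7 FPKM in ALDH+ libraries (3.18-fold, adjusted p = 0.0350). Its exons share 829 bases with Ptprcap on the opposite strand, and the preparation named in the labels is not stated to keep the strand, so that reads of the pair cannot be told apart. The related kinase Rps6kb1 had a log2 difference of 1.00 (adjusted p = 0.114), and Akt2 of -0.83 (adjusted p = 0.0945). Rtl1, an imprinted gene derived from a retrotransposon, had the second largest rise among the 72 called genes, from 1.16, 0.896 and 1.83 FPKM in ALDH- to 20.5 and 11 FPKM in ALDH+ libraries (7.16-fold, adjusted p = 0.0359). Of 22 tested imprinted genes it was the 1 called, and it overlaps microRNA genes on the opposite strand. The other called genes outside the described groups, among them the kainate receptor subunit Grik5 and the genes Bnip2, Ddx26b, Ttc14, Hivep1, Zc3h7a and 2810403A07Rik, rose between 1.94-fold and 3.24-fold. Exons of Ttc14 share 839 bases with Ccdc39 on the opposite strand.

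The identity genes of the β cell were not called in either direction. Of 27 transcription factors of the β cell 0 passed (limma, 7 at an unadjusted p under 0.05), 22 lay above 0 and the median was 0.36. Nkx6-1 was at 68.5, 65.4 and 25.8 FPKM in ALDH- and at 97.1 and 33.0 FPKM in ALDH+ libraries (log2 0.36, adjusted p = 0.489), so that each driver had its own level and the groups overlapped. Of the 10 defining β-cell markers 8 could be tested, and 0 were called (limma, 0 at an unadjusted p under 0.05). Ucn3, a marker of mature β cells, was at 648, 703 and 208 FPKM in ALDH- and at 774 and 192 FPKM in ALDH+ libraries (log2 0.01, adjusted p = 0.995). The glucose transporter gene Slc2a2 was at 108, 128 and 20.4 FPKM in ALDH- and at 100 and 18.4 FPKM in ALDH+ libraries (log2 -0.15, adjusted p = 0.928). Both genes were thus several times lower in the Pdx-Cre than in the RIP-Cre libraries, and Ins2, the insulin gene, was at 319701 and 272317 FPKM in the Pdx-Cre ALDH- and ALDH+ cells. The defining markers of β cells that were measured were above 1 FPKM in all 5 libraries, but the Pdx-Cre libraries, and above all the ALDH- library with Gcg at 35838 FPKM and Sst at 13631 FPKM, go against the label of the sorted cells as β cells alone. Among 29 genes of β-cell function, 19 of prohormone processing and 9 of peptide hormones 0 passed (5, 3 and 3 at an unadjusted p under 0.05), with medians of 0.04, -0.20 and -1.25.

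Among the peptide hormones, Ppy and Pyy had larger negative differences than any of the 72 called genes, and missed the threshold. Ppy, which encodes pancreatic polypeptide, was at 777 and 761 against 149 FPKM with RIP-Cre and at 8978 against 2132 FPKM with Pdx-Cre, the ALDH- values first (log2 -2.04, standard error 0.74, limma adjusted p = 0.203). Pyy, the gene of peptide YY, was at 1398 and 1317 against 226 FPKM with RIP-Cre and at 9206 against 2301 FPKM with Pdx-Cre (log2 -2.11, standard error 0.87, adjusted p = 0.268). ALDH+ cells had the lower level of both within each driver, with log2 differences of -2.36 and -2.20 for Ppy and of -2.57 and -2.12 for Pyy, while the Pdx-Cre ALDH+ library lay above both RIP-Cre ALDH- libraries. In the knockout libraries the differences were -2.15 for Ppy (standard error 0.45, adjusted p = 0.257) and -2.04 for Pyy (standard error 0.54, adjusted p = 0.319). Iapp, which encodes the amyloid polypeptide released with insulin, was at 105955, 125094 and 81976 FPKM in ALDH- and at 33196 and 69597 FPKM in ALDH+ libraries (log2 -1.16, adjusted p = 0.474). The 2 groups did not overlap for Iapp. Cck, the cholecystokinin gene, was listed at 0 and at 7.77 and 0.681 FPKM in ALDH- and was at 15.3 and 8.94 FPKM in ALDH+ libraries (log2 2.26, adjusted p = 0.271). Gast, the gastrin gene, was at 6.19, 4.93 and 4.41 FPKM in ALDH- libraries, and in ALDH+ cells was listed at 0 with RIP-Cre and at 2.97 FPKM with Pdx-Cre (log2 -1.63, adjusted p = 0.431). Neither gene overlapped between the groups. Npy, a neuropeptide, was at 5.28, 14.6 and 195 FPKM in ALDH- and at 0.314 and 146 FPKM in ALDH+ libraries (log2 -1.25, adjusted p = 0.783), and Ghrl, the ghrelin gene, was listed at 0 in 4 of the 5 libraries and reached 1.97 FPKM in ALDH+ cells with Pdx-Cre.

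The proteasome, which degrades ubiquitin-tagged proteins, had 3 called falls among 44 tested subunits, 0 rises, 41 members below 0 and a median of -0.53. Shfm1 encodes Sem1, a very small subunit of the regulatory particle. It was at 121, 129 and 144 FPKM in ALDH- and at 16.5 and 69.9 FPKM in ALDH+ libraries, the largest fall among the 72 called genes (4.06-fold, log2 -2.02, standard error 0.35, adjusted p = 0.0350). The RIP-Cre ALDH+ library was far lower than the Pdx-Cre ALDH+ library, with log2 differences of -2.84 and -1.16 within the drivers. Psma6, of the catalytic core, was at 205, 196 and 209 FPKM in ALDH- and at 77.8 and 142 FPKM in ALDH+ libraries (2.10-fold lower, adjusted p = 0.0359). Psmd8, of the regulatory particle, was 1.97-fold lower (adjusted p = 0.0413). Other protein quality genes outside the list fell as well, the chaperonin subunit Cct5 by 0.85 on the log2 scale (adjusted p = 0.0482) and the Hsp90 co-chaperone Ahsa1 by 2.00-fold (adjusted p = 0.0437).

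Endosomal sorting, autophagy and lysosomes held 4 called falls. Vps36, at chr8:23303332-23329069 in mm9, a subunit of the ESCRT-II complex that sorts ubiquitin-tagged membrane proteins into endosomes, had the smallest p of all genes tested. It was at 15.9, 14.2 and 22.7 FPKM in ALDH- and at 2.66 and 5.84 FPKM in ALDH+ libraries, on 188 to 224 and on 27 and 60 fragments (3.87-fold lower, log2 -1.95, standard error 0.29, adjusted p = 0.0262). Gabarapl1, a protein that coats autophagosomes, was at 89.2, 93.8 and 70.6 FPKM in ALDH- and at 48.9 and 43.5 FPKM in ALDH+ libraries (1.83-fold lower, adjusted p = 0.0392). These were the 2 called among 45 genes of ESCRT and autophagy, whose median was -0.19. Of 37 lysosomal genes 2 fell, with 33 below 0 and a median of -0.33. They were the membrane proteins Cd63 (2.54-fold, adjusted p = 0.0394) and Lamp1 (1.67-fold, adjusted p = 0.0491), and Lamp1 was at 389, 428 and 354 FPKM in ALDH- and at 219 and 256 FPKM in ALDH+ libraries. The proton pump that acidifies lysosomes and insulin granules had 0 of 18 subunits called (limma, 7 with an unadjusted p under 0.05), although all 18 tested lay below 0, with a median of -0.44.

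Entry of proteins into the endoplasmic reticulum showed the same direction. Of 34 tested genes of signal recognition, translocation, signal peptidase and N-glycosylation, 2 fell, 0 rose and 30 lay below 0, with a median of -0.35. Krtcap2, a subunit of the oligosaccharyltransferase, was at 518, 467 and 548 FPKM in ALDH- and at 142 and 428 FPKM in ALDH+ libraries (2.29-fold lower, adjusted p = 0.0366). Most of that difference came from the RIP-Cre pair, with log2 differences of -1.78 there and -0.48 in the Pdx-Cre pair. Ssr4, a translocon-associated protein, was at 405, 368 and 359 FPKM in ALDH- and at 172 and 262 FPKM in ALDH+ libraries (1.88-fold lower, adjusted p = 0.0425). Tmem66, a regulator of calcium entry in the same membrane, fell by 1.75-fold (adjusted p = 0.0487). Of 42 genes of the unfolded protein response 0 passed (limma, 12 with an unadjusted p under 0.05) and the median was -0.23.

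Mitochondrial genes outside OXPHOS lay mostly below 0 as lists, and few of them were called. In the list of import and of fission and fusion, 2 of 38 tested genes fell, 0 rose and 32 lay below 0, with a median of -0.42. Fis1, an adaptor of mitochondrial fission, was at 69.5, 82.2 and 97.9 FPKM in ALDH- and at 11.1 and 44.8 FPKM in ALDH+ libraries (3.97-fold lower, log2 -1.99, standard error 0.34, adjusted p = 0.0298). Tomm7, of the outer membrane import pore, was at 27.6, 30.4 and 30.4 FPKM in ALDH- and at 6.09 and 15.9 FPKM in ALDH+ libraries (2.98-fold lower, adjusted p = 0.0350). Bax, which opens the outer membrane in apoptosis, was at 53.5, 42.7 and 65.1 FPKM in ALDH- and at 10.5 and 29.6 FPKM in ALDH+ libraries (3.26-fold lower, adjusted p = 0.0359). The intermembrane protease Htra2 (2.56-fold, adjusted p = 0.0494) and 1500032L24Rik, now Smdt1, a subunit of the calcium uniporter (2.14-fold, adjusted p = 0.0400), fell too. Among 34 genes of the citric acid cycle and its shuttles and 43 antioxidant genes 0 passed (limma, 4 and 17 at an unadjusted p under 0.05). Of these, 29 and 38 lay below 0, with medians of -0.28 and -0.52.

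Of small cytoskeletal proteins all 32 tested lay below 0, with a median of -0.45, and 2 fell. This list and the large scaffolds differ in median transcript length, at 1891 and 9963 nt. With the trend over transcript length removed, their medians were -0.28 and 0.05, so that the scaffolds no longer stood above 0 as a list. Tmsb4x, which sequesters actin monomers, was at 99.6, 174 and 83.9 FPKM in ALDH- and at 43.5 and 44.9 FPKM in ALDH+ libraries (2.51-fold lower, adjusted p = 0.0359). Myl6, a light chain of non-muscle myosin, was 2.00-fold lower (adjusted p = 0.0350). Of 48 translation factors 1 fell, the elongation factor subunit Eef1g (1.77-fold, adjusted p = 0.0359), and 41 lay below 0 with a median of -0.42. Other called falls were those of the CAAX protease Rce1 (3.36-fold, adjusted p = 0.0350), the RNA exosome subunit Exosc5 (4.01-fold, adjusted p = 0.0416), the Mediator subunit Med21 (2.29-fold, adjusted p = 0.0413), Hint1 (1.99-fold, adjusted p = 0.0359), Churc1, Tprgl and Nme2 (2.47-fold, adjusted p = 0.0418). Exosc5 rested on few fragments, 20 and 10 in the ALDH+ libraries. C330021F23Rik and Gm5148, called lower by 2.00-fold and 1.99-fold, each share 396 exonic bases with a pseudogene of the ribosomal protein gene Rps23 on the opposite strand, so that their values cannot be told apart from ribosomal reads. How the counting split reads between a gene and its near-identical copies is not stated.

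**Figure D2:**
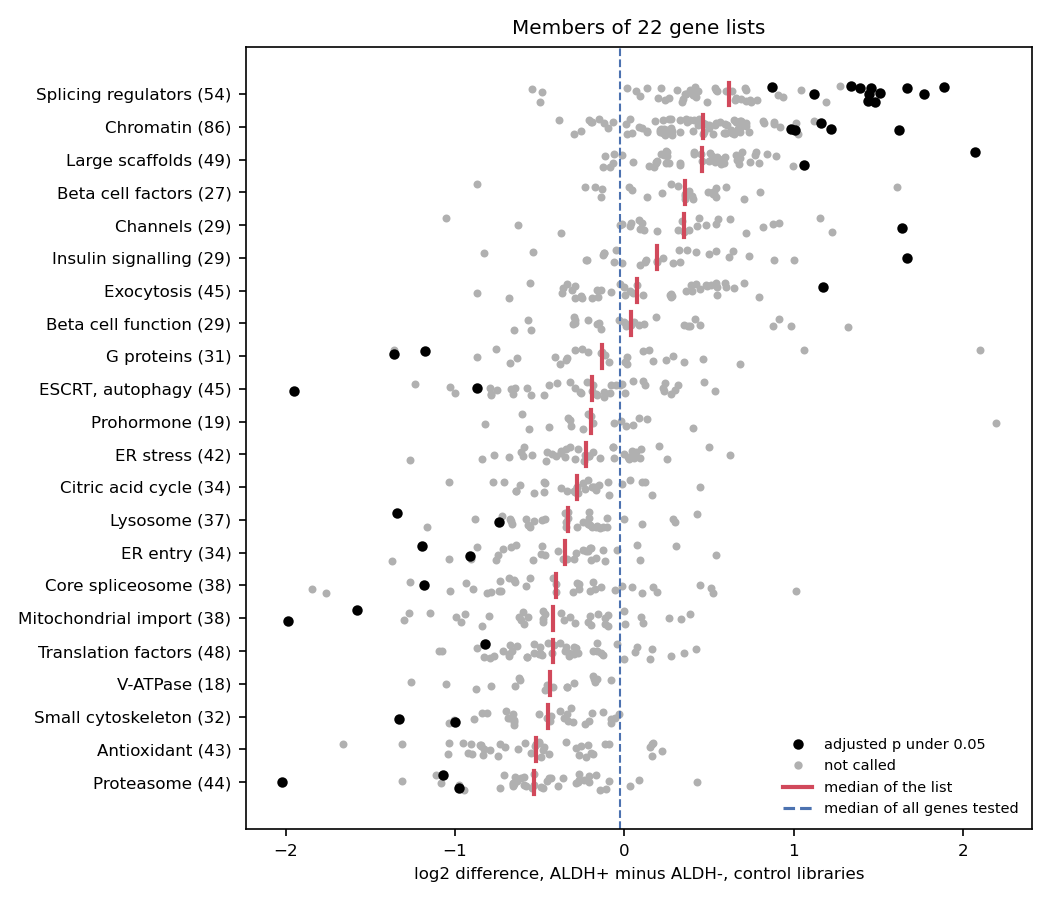
The log2 difference between control ALDH+ and ALDH- cells of each tested member of 22 gene lists, with the number tested in brackets, called members in black, the median of each list as a red bar and the median of all genes tested as a dashed line. Of the 22 lists drawn, which leave out the peptide hormones with their median of -1.25, the splicing regulators lie furthest to the right, with a median of 0.62, and the proteasome furthest to the left, with a median of -0.53.

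The direction of the groups followed the length of their transcripts. The longest annotated transcript had a median length of 5245 nt among the 34 called genes that rose and of 1244 nt among the 38 that fell, against 3062 nt over all genes tested. With the genes divided by length into 5 bins of nearly equal number, from the shortest to the longest, the median log2 difference was -0.41, -0.14, -0.04, 0.04 and 0.22. The order was the same in the RIP-Cre pair (from -0.48 to 0.25), in the Pdx-Cre pair (from -0.35 to 0.22) and, with smaller values, in the knockout libraries (from -0.19 to 0.11). When the trend with length was taken out of each library, all 72 genes kept their direction and 3 stayed called, Pnn, Aldh1a3 and Vps36, with 5 calls in all in place of 137. The list medians moved to 0.54 for splicing regulators, 0.21 for chromatin, 0.05 for scaffolds, -0.24 for the proteasome, -0.26 for entry into the endoplasmic reticulum, -0.19 for mitochondrial import, -0.22 for the core spliceosome and -0.28 for small cytoskeletal proteins. The part of transcript length in these differences was not tested. The labels ask for an RNA integrity number above a minimum, and no value per library is given.

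**Figure D3:**
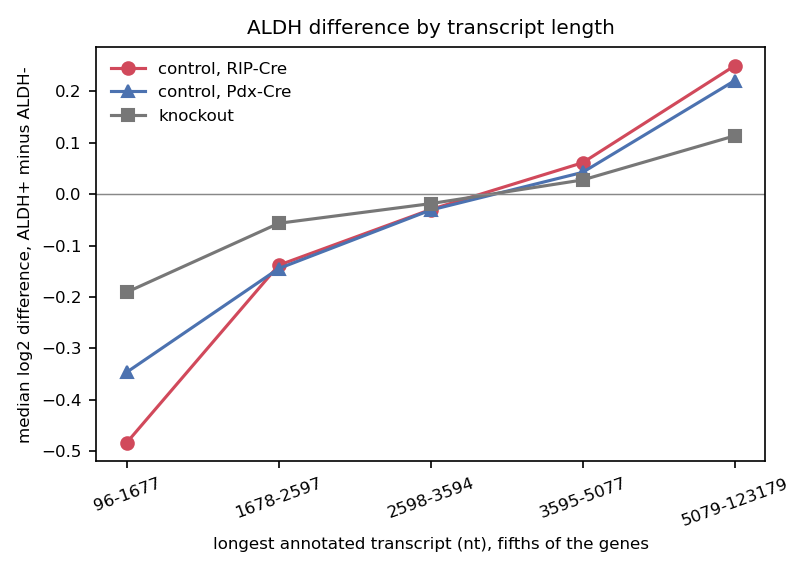
Median log2 difference between ALDH+ and ALDH- cells for 5 bins of the genes by the length of the longest annotated transcript in nt, in the RIP-Cre control libraries, the Pdx-Cre control libraries and the knockout libraries. All 3 lines rise from the shortest bin, at -0.48, -0.35 and -0.19, to the longest, at 0.25, 0.22 and 0.11.

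Markers of several other islet and pancreatic cell types moved with the cre driver and, in part, with ALDH. Alpha-cell markers, led by the glucagon gene Gcg, summed to 1184 and 1466 FPKM in the RIP-Cre ALDH- libraries, 742 FPKM in the RIP-Cre ALDH+ library, and for Pdx-Cre to 36345 FPKM in ALDH- and 6155 FPKM in ALDH+ cells. The delta-cell list, led by Sst, reached 14032 FPKM in ALDH- cells of the Pdx-Cre mouse and lay between 436 and 3098 FPKM in the other 4. The list of PP and epsilon cells, led by Pyy, was lower in ALDH+ cells of both drivers, at 2175 and 2078 against 375 FPKM with RIP-Cre and at 18184 against 4435 FPKM with Pdx-Cre. Acinar markers summed to 2.74, 2.73 and 0.246 FPKM in the RIP-Cre libraries, and for Pdx-Cre to 41.5 FPKM in ALDH- and 1603 FPKM in ALDH+ cells, of which Ctrb1 made up 1223 FPKM. All 16 acinar genes were above 1 FPKM in the Pdx-Cre ALDH+ library, where 14 of 16 were at 0 in the RIP-Cre ALDH+ library. For the sums of these lists both Pdx-Cre control libraries thus lay above all RIP-Cre libraries. Other markers went the other way. The alpha-cell marker Gc was at 124, 113 and 109 FPKM in the RIP-Cre and at 86.4 and 48.1 FPKM in the Pdx-Cre libraries. The duct list summed to 545, 511 and 585 FPKM with RIP-Cre and to 466 and 455 FPKM with Pdx-Cre. Endothelial and stromal lists did not exceed 4.01 and 0.736 FPKM, and immune markers, led by Cd68, lay between 31.4 and 125 FPKM. In bulk libraries fewer cells of a type and less RNA per cell cannot be told apart.

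**Figure D4:**
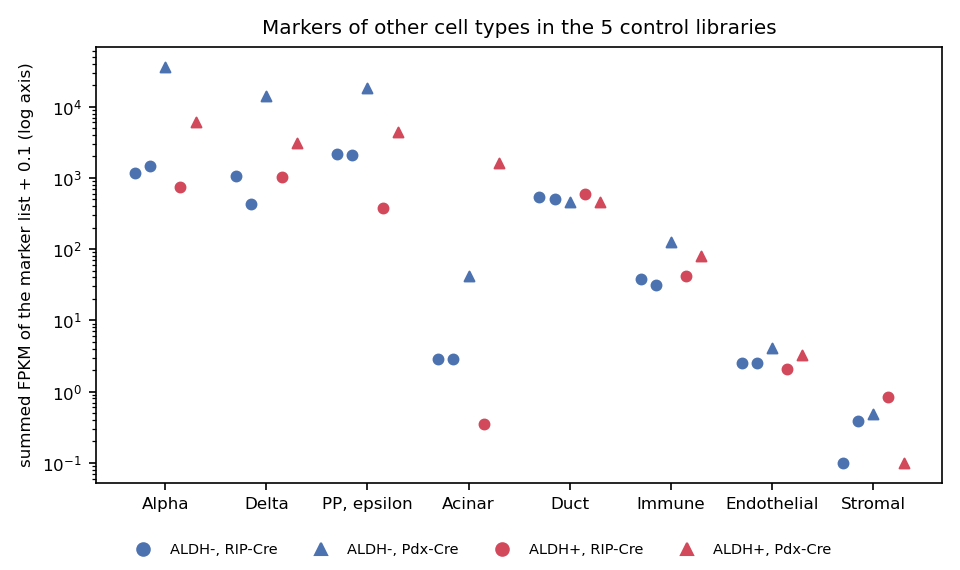
Summed FPKM of 8 marker lists, plus 0.1 and on a log axis, in each control library (blue ALDH-, red ALDH+, circles RIP-Cre, triangles Pdx-Cre). The Pdx-Cre ALDH- library is highest for alpha, delta and PP and epsilon markers, and the Pdx-Cre ALDH+ library is highest for acinar markers, at 1603 FPKM.

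With the Pdx-Cre libraries left out, ALDH+ replicate 1 stood alone against ALDH- replicates 1 and 2 in the controls. In these RIP-Cre libraries acinar markers were near 0. The RIP-Cre knockout libraries shared that fit and its spread, so that no count of calls is given. The 72 kept their direction there, which their choice by the same libraries makes likely. The median over the 34 rising genes was 1.56 within RIP-Cre and 1.14 within Pdx-Cre, that over the 38 falling genes -1.46 and -0.96. The list medians of the 2 drivers had the same sign and were 0.74 and 0.48 for splicing regulators, 0.49 and 0.41 for chromatin, -0.62 and -0.41 for the proteasome, -0.45 and -0.15 for mitochondrial import and -0.45 and -0.26 for entry into the endoplasmic reticulum. The exocytosis list was at 0.23 and -0.08, with opposite signs. The part of other cell types in the remaining differences was not tested.

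The same contrast in the 10 knockout libraries, which share no library with the controls, gave each gene a second measurement. There 1 of 11204 genes was called (0.00893%), Aldh1a3 (log2 3.74, standard error 0.44, adjusted p = 0.0155), while 10.8% had an unadjusted p under 0.05. Of the 34 genes that rose in control ALDH+ cells, 34 also had a positive difference in the knockouts, where 49.2% of all genes did. An unadjusted p under 0.05 in that direction was found for 27 of them, against 4.62% of all genes (limma). Of the 38 that fell, 31 had a negative difference there, where 50.8% of all genes did, and 22 an unadjusted p under 0.05, against 6.25% of all genes in that direction. The fit that called these genes took part of its spread from the same knockout libraries, which favours genes with little spread there. These counts of p are therefore not independent of the calls. The sizes were smaller in the knockouts, with medians of 0.63 for the rising and -0.42 for the falling genes, against 1.44 and -1.21 in the controls, which chose them. Rps6kb2 was nearly equal in both, at 1.67 in the controls and 1.58 in the knockouts, whereas Rtl1 was at 2.84 and 0.64. The list medians in the knockouts were 0.41 for splicing regulators, 0.20 for chromatin, -0.20 for the proteasome, -0.26 for mitochondrial import and -0.28 for small cytoskeletal proteins.

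The 7 falling genes without a negative difference in the knockouts were Vps36, Rce1, Bax, Gabarapl1, Ahsa1, Htra2 and 2210411K11Rik. Vps36 had a log2 difference of -1.95 in the controls and of 0.34 (standard error 0.20) in the knockouts, and Bax of -1.71 and 0.01 (standard error 0.25). The test of the difference between genotypes called 0 of 11253 genes (limma, 4.23% at an unadjusted p under 0.05). The smallest adjusted p among the 72 was that of Vps36, 0.0799, for a control minus knockout value of -2.30 (standard error 0.35), so that no gene was shown to respond differently in the controls.

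**Figure D5:**
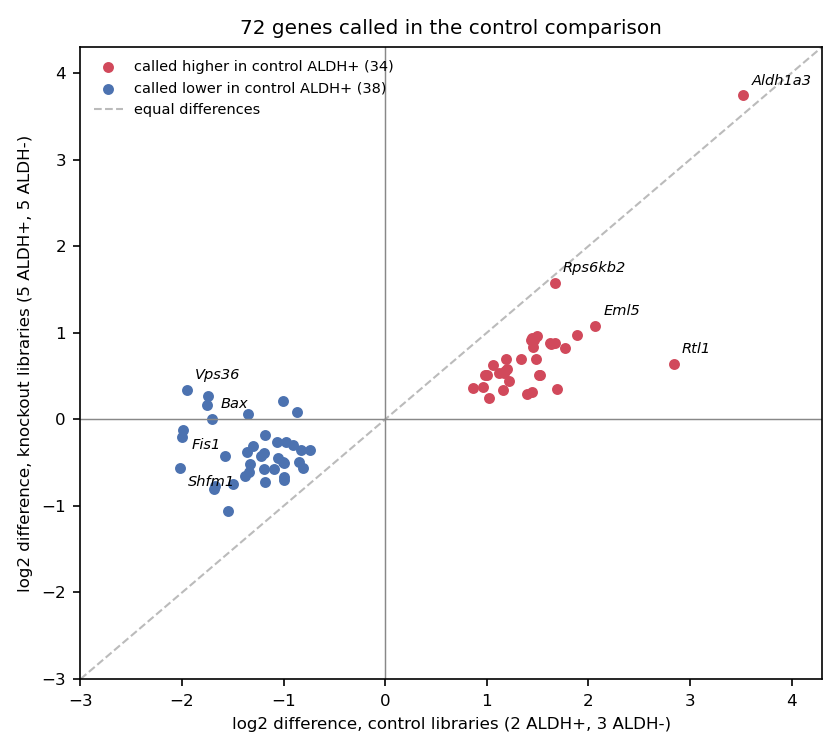
The log2 difference between ALDH+ and ALDH- cells in the control libraries (horizontal axis) and in the knockout libraries (vertical axis) of the 72 described genes called in the controls, with a dashed line of equal differences. All 34 rising genes lie above 0 on the vertical axis and 31 of the 38 falling genes below it, mostly closer to 0 than in the controls, and Aldh1a3 lies at 3.53 and 3.74.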

How the data were processed

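RNA of FAC-sorted RFP+ islet cells was poly-A selected and sequenced from TruSeq libraries. The deposited files hold FPKM per gene with a confidence interval, made by the authors with a Cufflinks-type program. The submitters' processing notes name bcl2fastq 1.8.4, TopHat2 2.0.4 and the build mm9, and other versions are not given in the sources used here. No file holds counts. Fragments per gene were worked out from the interval width, and 65.3% to 66.9% of values under 500 fragments came within 0.02 of a whole number, so that no count test was run. Fragment sums bound the depth from below, because genes marked too deep, such as Ins1 in all libraries and Ins2 in ALDH- replicates 1 and 2, add nothing.

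Of 23699 entries, 248 symbols listed more than once (712 lines) and 63 lines with a failed or too-deep estimate were left out, which kept 22924 genes. Groups and cre drivers came from the sample labels. FPKM were divided by a trimmed mean of M-values (30% of M and 5% of A trimmed on each side), genes with a mean of at least 1 over the libraries of a fit were kept, and log2(FPKM + 1) was fitted in limma 3.58.1 (R 4.3.3) with 4 groups, the cre driver and a trend in the prior variance. Tests were two-sided with Benjamini-Hochberg adjustment at 0.05. Knockout libraries were fitted alone for their own contrast, and the genotype by ALDH difference in the fit of all 15. In simulated data of the control comparison (11253 genes, 200 changed), 19.4%, 61.2% and 84.8% of changes of 1, 2 and 3 on the log2 scale were recovered, with 4 false calls. Lists were described by counts and medians without a set test.

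The members and lists were chosen with earlier results of these data known. The rule for named genes, from which the text draws, took the 15 genes with the smallest p in each direction outside ribosomal, OXPHOS and non-coding genes, called members of a list, up to 4 members per list with the smallest p, the ALDH, Foxo and hormone genes and defining markers, and other called genes chosen after their values were seen. Of 72 called genes, 28 share exonic bases with another gene of GENCODE M21, 21 of them on the opposite strand. No step here separated the reads of such pairs. Lengths are those of the longest transcript in that annotation. Alternatives covered filters of 0 and 5, pseudocounts of 0.1 and 5, scaling, samples, covariates, variance trend, transcript length, single libraries and replicate blocks.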

Additional observations from a re-analysis of the deposited data

How the results depend on the processing

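The count of 137 genes between control ALDH+ and ALDH- cells moved to 20 with RIP-Cre libraries only, 449 with control libraries only, 5 with the length trend removed, and 0 with no cre driver or no variance trend (limma, 1163 and 1538 genes at an unadjusted p under 0.05). Without single control libraries it was 0 to 108. It lay between 97 and 171 with other filters, pseudocounts, scalings and a cre term by genotype. With no filter 65 of 100 calls were higher in ALDH+ cells, against 52 of 137. The knockout count of 1 became 0 with no filter and with a pseudocount of 0.1 (1473 and 1199 at an unadjusted p under 0.05) and 0 to 2 without single libraries. The interaction count of 0 became 16 with no filter and 0 to 3 without single libraries. Replicate numbers joined libraries of different cre drivers in the control number 2, and the deviations of same-numbered libraries correlated at 0.24 and -0.24 in the controls and at 0.09 to 0.41 in the knockouts, so that the numbers were not taken to pair the samples. A replicate block gave 2 calls in the controls, 2 in the knockouts and 0 for the interaction (430 at an unadjusted p under 0.05), and a replicate block within cre driver 1. The Aldh1a3 difference was 3.76 with RIP-Cre libraries only (adjusted p = 0.0858), 3.55 with no cre driver (0.119) and 3.53 with no variance trend (0.0840), 3.35 to 3.68 without single libraries, and 2.27 to 4.22 over all alternatives, with adjusted p from 0.00751 to 0.624. The causes of these moves were not tested. The named genes of the report that were called kept their direction under every alternative, which their choice by the same libraries makes likely. FPKM with 2 ALDH+ libraries limit the precision of each.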

Other observations

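Groups outside the described ones gave no call in the control comparison. Of 29 tested genes of inflammation 0 passed (limma, 2 had an unadjusted p under 0.05) and the median was -0.04. The inhibitor Nfkbiz was at 16.3, 12.9 and 25.1 FPKM in ALDH- and at 25.7 and 37.9 FPKM in ALDH+ libraries (log2 0.69, adjusted p = 0.202). Of 21 tested progenitor and dedifferentiation genes 0 passed (2 had an unadjusted p under 0.05) and the median was 0.20. The adhesion receptor Cd44 was at 13.0, 13.0 and 14.1 FPKM in ALDH- and at 34.6 and 36.2 FPKM in ALDH+ libraries, so that the groups did not overlap (log2 1.19, adjusted p = 0.190), and its difference in the knockouts was 1.04. Neurog3, the endocrine progenitor factor, was at 0.316, 0.846 and 5.28 FPKM in ALDH- and at 0.316 and 0.234 FPKM in ALDH+ libraries. Of 29 immediate early genes 0 passed (4 at an unadjusted p under 0.05), and Fosb was at 4.20, 2.73 and 13.1 FPKM in ALDH- and at 20 and 30.3 FPKM in ALDH+ libraries (log2 1.81, adjusted p = 0.162).

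Of the 5 tested genes that β cells normally keep low, Ldha separated the libraries by cre driver more than by ALDH. Among the others Zyx was also higher with Pdx-Cre, Cat and Lmo4 were lower with Pdx-Cre, and Tgm2 did not separate by driver. Ldha, lactate dehydrogenase A, was at 1.43, 2.11 and 0.397 FPKM in the RIP-Cre libraries and at 89.2 and 83.4 FPKM in the Pdx-Cre ALDH- and ALDH+ libraries. Among glycolytic genes Tpi1 was at 62.9, 49.6 and 24.7 FPKM in the RIP-Cre and at 215 and 180 FPKM in the Pdx-Cre libraries, in the same order. Ldha and Tpi1 were lower in ALDH+ cells within each driver, and neither was called (log2 -0.63 and -0.75, limma adjusted p = 0.709 and 0.298).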
